A study of Homo sapiens with 16 samples.

Results

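Transforming growth factor-β (TGF-β) signaling was examined through 10 of its genes, of 26258 genes in the table of CPM values (a gene's reads scaled to a common library total), in parental and Sorafenib-resistant hepatocellular carcinoma (HCC) cells. The genes were a fixed list, found by gene ID: the ligand genes TGFB1, TGFB2 and INHBA, the receptor genes TGFBR1 and TGFBR2, the signal-carrying SMAD3, the inhibitors SMAD6, SMAD7 and SKIL, and the target gene TGFBI. All 10 had at least 1 CPM in at least 2 libraries, the limit for entering the test.

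Both lines, Huh7 and Hep3B, are established from human HCC, and Sorafenib is a multikinase inhibitor used against HCC. For each line, 4 groups of 2 libraries were sequenced from bulk poly(A) RNA: parental cells, cells labeled DMSO (the solvent, with an untreated label), IR cells raised in increasing Sorafenib concentrations, and CR cells held throughout at a high one. IR and CR cells carried 7 μM Sorafenib according to the labels, and the sources do not say how long the DMSO cells were cultured or whether the resistant lines were clones. The labels name 2 replicates without saying that these were separate cultures, so p-values measure the spread between these libraries, which may be technical. Resistant and drug-exposed are the same libraries here, so adaptation to Sorafenib and its presence in the medium cannot be told apart.

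TGF-β and activin ligands are secreted dimers. TGF-β itself is held in a latent complex with LTBP proteins until it is activated. The ligand brings together a type II and a type I receptor kinase, TGFBR2 and TGFBR1 for TGF-β, which phosphorylate SMAD2 and SMAD3; these join SMAD4 and act on target genes in the nucleus. BMP ligands use SMAD1, SMAD5 and SMAD9 instead. SMAD6 and SMAD7 are induced by these pathways and block the receptors, while the SKIL product (SnoN) represses SMAD-driven transcription. In liver, TGF-β is known for growth arrest of hepatocytes at first and for matrix production and epithelial-mesenchymal transition in later disease.

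The sequences just before the start of 4 member genes show which motifs known from TGF-β and BMP responses are written there. They were taken from the RefSeq promoter table (GRCh38.p14), in which all 10 members matched and 6 had a single start. The 100 bases before the start are printed 5′ to 3′ on the gene's own strand, with motif matches in capitals, for the 3 ligand genes and for SMAD6.

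TGFB1, chr19:41353923-41354022, minus strand: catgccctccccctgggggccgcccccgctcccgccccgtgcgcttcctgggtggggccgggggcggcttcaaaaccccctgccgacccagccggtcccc

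TGFB2, chr1:218345236-218345335, plus strand: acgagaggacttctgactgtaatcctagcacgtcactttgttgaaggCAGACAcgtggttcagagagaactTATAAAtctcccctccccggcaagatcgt

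INHBA, chr7:41703091-41703190, minus strand: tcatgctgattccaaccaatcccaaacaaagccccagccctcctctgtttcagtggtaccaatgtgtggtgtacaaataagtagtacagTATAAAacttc

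SMAD6, chr15:66702136-66702235, plus strand: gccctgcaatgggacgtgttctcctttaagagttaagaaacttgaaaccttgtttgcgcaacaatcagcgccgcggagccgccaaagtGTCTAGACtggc

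On either strand of the 250 bases before each start, 5 sets of letters were searched. The SMAD6 window held the palindromic SMAD binding element GTCTAGAC, 12 bases before the start, which 0.182% of all 35116 windows held. No window of another member held it. All members were searched for 5 sets of letters, so this share is not the chance of a match among them. The TGFB2 window held the CAGA-type element CAGACA 53 bases before the start (13.6% of windows) and the TATA box TATAAA 29 bases before it (10.7% of windows), and INHBA held TATAAA 11 bases before its start. The TGFB1 window held none of these, nor the AP-1 site TGACTCA (4.2% of windows) or the GC-rich element GGCGCC (16.4% of windows). Of the members not printed, TGFBR1, SMAD3, SKIL and TGFBI held GGCGCC in at least 1 window, and TGFBR1 and SMAD3 held CAGACA. SMAD3 also held TGACTCA, SMAD7 held TATAAA and TGFBR2 held none. A match is a run of letters and not a site shown to be bound.

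Totals lay between 46613302 and 76860251 reads a library. Pearson's r between replicates across genes was 0.971 to 0.995, and the SD of the replicate difference was widest in Huh7 DMSO (0.571 on the log2 scale) and Huh7-IR cells (0.566). Of 8 hepatocyte markers, 7 and 6 fell in Huh7-IR and CR and 3 and 6 in Hep3B-IR and CR cells, where 3234, 2530, 2059 and 2278 of 15019 genes were lower, and 1 rose in Hep3B-IR cells. Their summed CPM was 10460 to 16035 in Huh7 parental, 87.7 to 396 in Huh7-IR and 1297 to 2681 in Huh7-CR libraries, and AFP was at 3.12 and 2.79 CPM in Huh7-IR cells against 3549 and 6269 CPM in parental cells. In Hep3B the sum was 16941 to 21034 in parental, 3353 to 10182 in IR and 1191 to 2020 in CR libraries. The leukocyte sum of 3 markers rose with CD68, from 7.53 to 9.15 CPM in Huh7 parental to 47.5 to 73.3 CPM in Huh7-IR cells, while the defining marker PTPRC lay at 0.0663 and 0.0429 CPM there. The 4 endothelial markers summed to at most 6.36 CPM in any library. Of 4 fibroblast markers tested, 3 rose and 1 fell in each Huh7 comparison, where 36% and 24.5% of all genes were higher. In Hep3B 1 rose and 1 fell in IR cells and 1 rose in CR cells, where 18.3% and 23.6% were higher. All 5 listed markers summed to 280 to 331 CPM in Huh7 parental, 111 to 120 CPM in IR and 187 to 367 CPM in CR libraries. In Hep3B the sums were 27.5 to 37.0 CPM in parental, 33.0 to 86.5 CPM in IR and 66.8 to 86.2 CPM in CR libraries. The part of these marker changes in the results below was not tested.

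**Figure D1:**
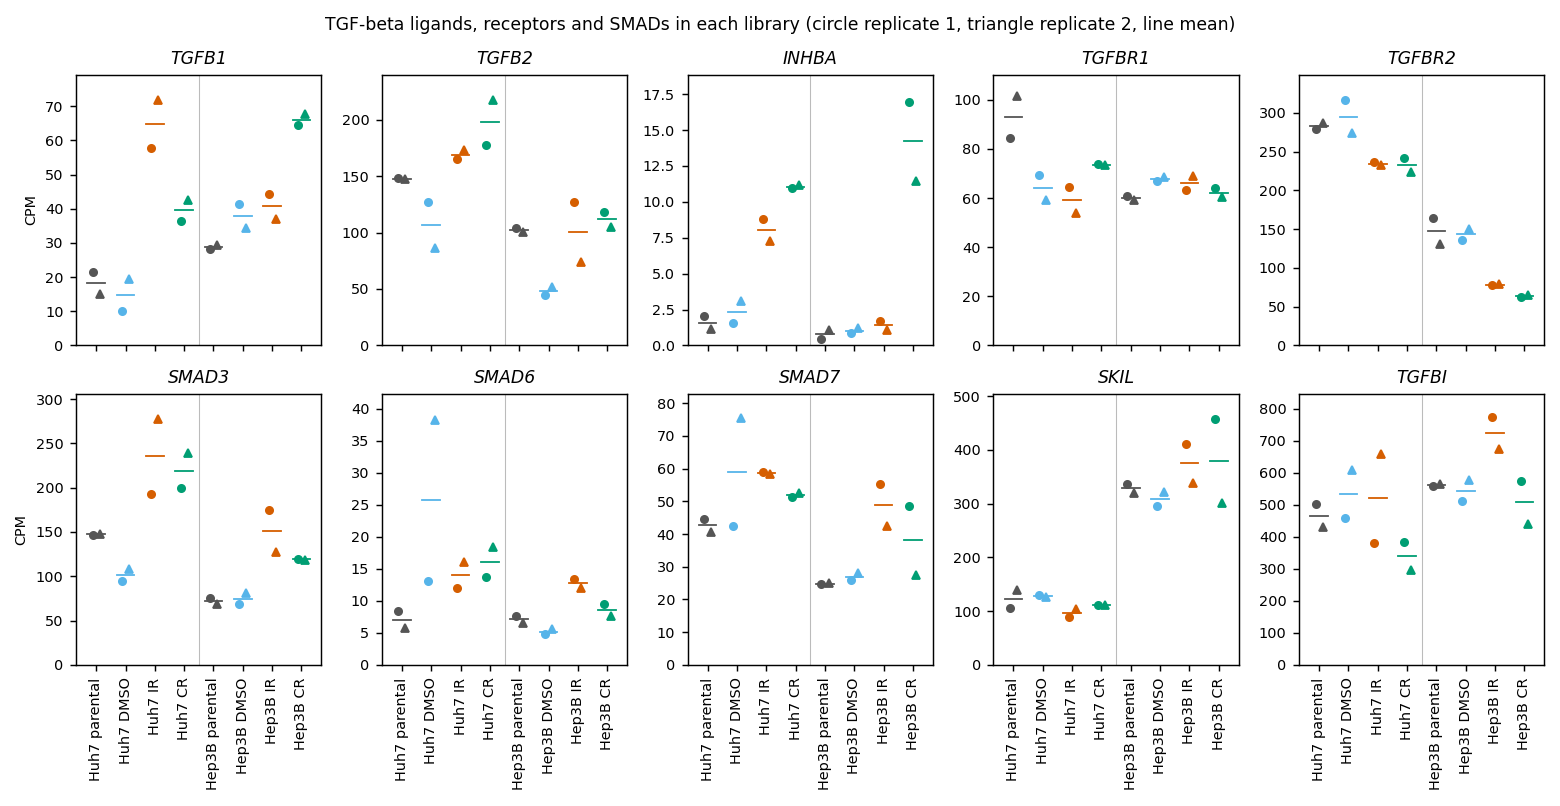
CPM of the 10 genes in each of the 16 libraries (y axis, linear from 0), by group (x axis), with circles for replicate 1, triangles for replicate 2 and lines for the mean. TGFB1 and INHBA stand higher in Huh7-IR, Huh7-CR and Hep3B-CR than in parental libraries, TGFBR2 is lower in both resistant Hep3B lines, and SMAD6 has 1 high library in Huh7 DMSO cells.

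Huh7-IR, Huh7-CR and Hep3B-CR cells had more RNA of the ligand genes TGFB1 and INHBA, all 4 resistant groups had more of SMAD3, and both resistant Hep3B groups had less of TGFBR2. Each difference was tested with limma on log2(CPM + 1), with p adjusted by Benjamini-Hochberg over 15019 genes and a call at an adjusted p under 0.05. In Huh7-IR cells 3 of 10 members rose (TGFB1, INHBA, SMAD3) and TGFBR1 fell, where 57.5% of all genes were called. In Huh7-CR cells 4 rose (TGFB1, INHBA, SMAD3, SMAD6) and none fell, against 41.3% of genes called and with TGFBR1 and TGFBR2 at an unadjusted p under 0.05 that missed the adjusted threshold and called lower by both edgeR and DESeq2. In Hep3B-IR cells SMAD3 and SMAD7 rose and TGFBR2 fell, against 32% of genes called. In Hep3B-CR cells TGFB1, INHBA and SMAD3 rose and TGFBR2 fell, against 38.8% of genes called. The members were thus called no more often than genes at large in 3 of the 4 comparisons, and in Hep3B-CR cells at 4 of 10 against 38.8%. Their median log2 fold change was 0.32, 0.35, 0.41 and 0.20 in the 4 comparisons, beside 0.19, 0.07, 0.06 and 0.11 over all genes tested. IR and CR cells of a line share their parental libraries.

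The all-gene median depended on the scaling. TMM factors, quantile normalization, edgeR or DESeq2 put it between 0.0035 and 0.07 in place of 0.19 in Huh7-IR cells. In Huh7-CR cells it lay between -0.03 and 0.01 in place of 0.07. In Hep3B-IR cells it lay between -0.01 and 0.03 in place of 0.06, and in Hep3B-CR cells between -0.0038 and 0.03 in place of 0.11. Relative to the median, the Huh7-IR changes were 1.59 for TGFB1, 1.64 for INHBA, 0.46 for SMAD3 and -0.83 for TGFBR1. The share of higher genes among all calls was 62.5% in Huh7-IR, 59.2% in Huh7-CR and 60.9% in Hep3B-CR cells, and fell to 49.4%, 48.3% and 49% at the lowest under these scalings. For DMSO against parental cells it was 69.4% in Huh7 and 67.6% in Hep3B, and 55.3% and 46.8% at the lowest. These scalings are built to hold most genes near no change, so they cannot show whether the excess of higher genes was real.

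**Figure D2:**
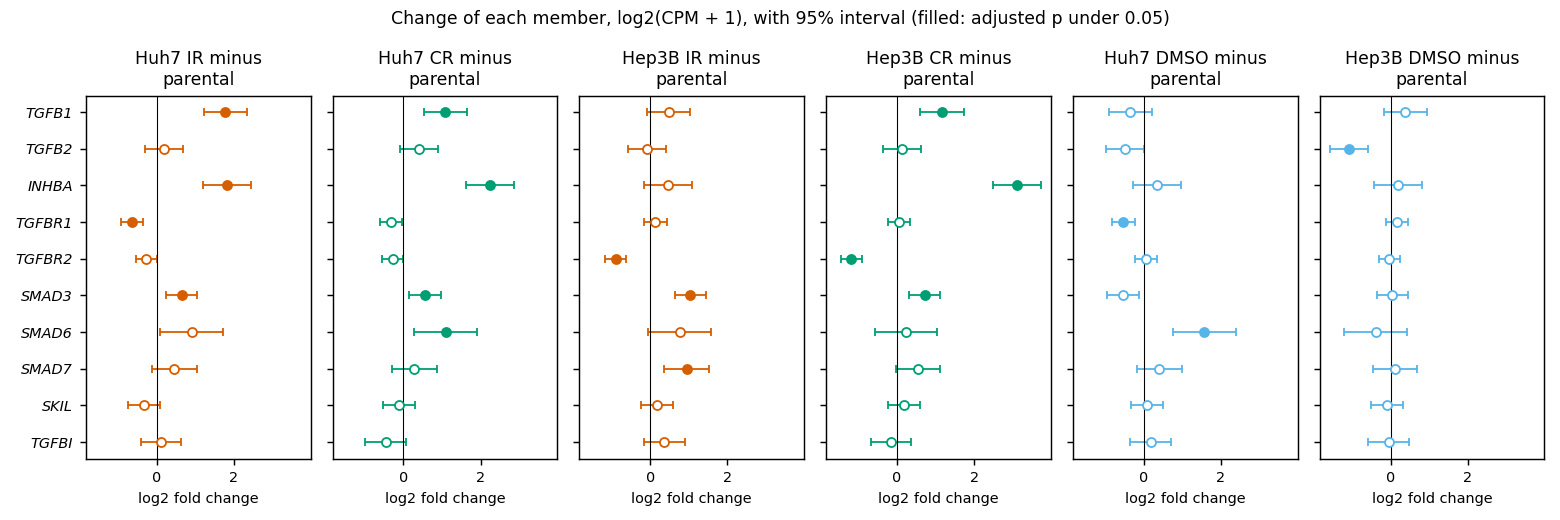
Log2 fold change on the log2(CPM + 1) scale (x axis) of the 10 genes (rows) in the 4 resistant and 2 DMSO comparisons with parental cells (panels), with 95% intervals from limma, and filled points where the adjusted p was under 0.05. SMAD3 is filled in all 4 resistant panels, and TGFB2, SKIL and TGFBI in none of them.

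TGFB1 (GRCh37, chr19:41807492-41859827, minus strand) encodes the TGF-β ligand most widely expressed in adult tissues. Its level was 21.6 and 15.1 CPM in Huh7 parental libraries, 57.7 and 71.7 CPM in IR and 36.4 and 42.6 CPM in CR libraries. Every resistant Huh7 library lay above both parental ones. The mean was 3.53 times the parental mean in Huh7-IR cells (log2 fold change 1.78 ± 0.26 SE, limma adjusted p = 0.00011) and 2.16 times in Huh7-CR cells (1.09 ± 0.26, limma adjusted p = 0.0053). The Huh7-CR call was lost without parental replicate 2 (0.84, limma adjusted p = 0.062).

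In Hep3B cells TGFB1 was at 28.2 and 29.4 CPM in parental, 44.4 and 37.0 CPM in IR and 64.3 and 67.8 CPM in CR libraries. The groups did not overlap, with CR cells highest. The CR mean was 2.29 times the parental mean (1.17 ± 0.26, limma adjusted p = 0.0038), and the IR difference did not pass (0.48 ± 0.26, limma adjusted p = 0.18). DMSO libraries held 9.93 and 19.4 CPM in Huh7 and 41.5 and 34.5 CPM in Hep3B, on the parental side of the resistant levels in Huh7 but overlapping the IR libraries in Hep3B.

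INHBA (chr7:41706766-41745432, minus strand) encodes the βA subunit of activin A and inhibin A. In Huh7 it was at 2.05 and 1.11 CPM (141 and 83 reads) in parental, 8.82 and 7.27 CPM in IR and 10.96 and 11.18 CPM in CR libraries. The resistant libraries lay clear of the parental ones, at 5.09 times the parental mean in IR cells (1.83 ± 0.29, limma adjusted p = 0.00019) and 7.00 times in CR cells (2.25 ± 0.29, limma adjusted p = 7.2e-05). In Hep3B it was at 0.471 and 1.07 CPM (35 and 76 reads) in parental, 1.73 and 1.08 CPM in IR and 17.0 and 11.5 CPM in CR libraries. Hep3B-CR cells stood apart from both other groups, at 18.5 times the parental mean (3.10 ± 0.29, limma adjusted p = 1.1e-05). Leaving out 1 parental or CR library put this ratio between 13.3 (without parental replicate 1) and 30.2 (without parental replicate 2). The lower Hep3B-IR library lay just above the higher parental one (0.45 ± 0.29, limma adjusted p = 0.26).

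TGFB2 (chr1:218518678-218617961, plus strand) encodes a second TGF-β isoform. It was at 148 and 147 CPM in Huh7 parental, 165 and 173 CPM in IR and 178 and 218 CPM in CR libraries, and at 104 and 100 CPM in Hep3B parental, 127 and 74.3 CPM in IR and 118 and 105 CPM in CR libraries. None of the 4 differences passed, with 95% intervals of -0.30 to 0.68 and -0.08 to 0.90 in Huh7 and -0.57 to 0.42 and -0.37 to 0.62 in Hep3B. Hep3B DMSO cells differed: at 44.3 and 51.4 CPM both libraries were below every other Hep3B library (-1.08 ± 0.23, limma adjusted p = 0.037), where 1.64% of all genes were called between DMSO and parental cells. Leaving out any 1 of the 4 libraries ended that call, with values of -1.19 to -0.98. Against the DMSO libraries TGFB2 was higher in all 4 resistant groups, by 0.68 and 0.90 in Huh7-IR and CR and by 1.01 and 1.21 in Hep3B-IR and CR cells.

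TGFBR2 (chr3:30648093-30735634, plus strand) encodes the type II receptor that binds TGF-β. Hep3B libraries held 165 and 130 CPM in parental, 77.4 and 78.9 CPM in IR and 62.3 and 65.6 CPM in CR cells. Both resistant groups lay below every parental and DMSO library (136 and 151 CPM in DMSO cells), at 0.530 times the parental mean in IR cells (-0.90 ± 0.13, limma adjusted p = 0.00027) and 0.434 times in CR cells (-1.18 ± 0.13, limma adjusted p = 3.2e-05). As bulk RNA was measured, fewer cells with the transcript and less of it in each cell cannot be told apart. In Huh7 the levels were 279 and 287 CPM in parental, 236 and 233 CPM in IR and 242 and 223 CPM in CR libraries, 0.828 and 0.822 times the parental mean. These differences did not pass with limma (-0.27 ± 0.13, adjusted p = 0.088, and -0.28 ± 0.13, adjusted p = 0.096), and passed with edgeR (-0.47 and -0.38), DESeq2 (-0.49 and -0.37) and TMM factors (-0.47 and -0.38). Averaged over both regimens, the change from parental cells was higher in Huh7 than in Hep3B by 0.76 ± 0.16 (limma adjusted p = 0.0032), where 31.6% of all genes differed between the lines.

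The genes around TGFBR2 were lower in resistant Hep3B cells as well. Of 26 other tested genes within 5 Mb, 14 fell and 2 rose in Hep3B-IR cells and 13 fell and 3 rose in Hep3B-CR cells, that is 53.9% and 50% lower, beside 13.8% and 15.3% of all placed genes. Their median log2 fold change was -0.50 in IR and -0.44 in CR cells, beside 0.06 and 0.11 over all placed genes. STT3B, a subunit of the oligosaccharyltransferase, was at -0.84 and -0.77, CMTM6, known for stabilizing PD-L1, at -0.76 and -0.89, and DYNC1LI1, a dynein light intermediate chain, at -0.99 and -1.06. In Huh7 the neighbours' median was 0.29 in IR cells, with 8 higher and 4 lower, and 0.00 in CR cells. Around TGFB2, 19 of 31 genes (61.3%) fell in Hep3B-IR and in Huh7-IR cells, with 3 and 1 higher and medians of -0.67 and -0.86. TGFB2 itself was at -0.07 and 0.19 there. Around INHBA, 22 of 49 genes fell and 2 rose in Hep3B-IR cells, with INHBA itself at 0.45. Around TGFB1, 108 of 204 genes rose and 12 fell in Huh7-IR cells, and 74 rose and 15 fell in Huh7-CR cells. Their medians were 0.59 and 0.35, beside 0.19 and 0.07 over all placed genes, with TGFB1 itself at 1.78 and 1.09. In Hep3B-IR and CR cells the medians around TGFB1 were 0.24 and 0.19, beside 0.06 and 0.11. Across the 16 libraries the genes most like TGFBR2 by Pearson's r of log2(CPM + 1) were TMA7 (0.981), ACAA1 (0.980) and SNRK (0.973), all on chromosome 3. These neighbourhoods and the 3 genes were chosen after the values were seen, and DNA copy number was not measured here.

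**Figure D3:**
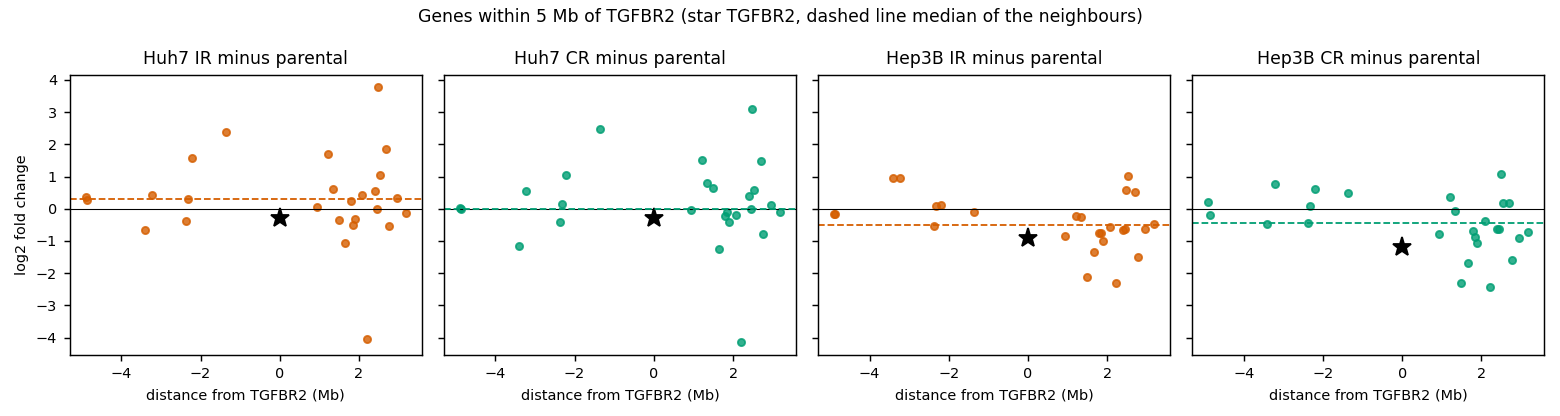
Log2 fold change on the log2(CPM + 1) scale (y axis) of tested genes within 5 Mb of TGFBR2 against the distance between gene midpoints in Mb (x axis), in the 4 resistant comparisons with parental cells. The star is TGFBR2 and the dashed line the median of the 26 neighbours, which lies at -0.50 in Hep3B-IR and at -0.44 in Hep3B-CR cells.

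TGFBR1 (chr9:101866320-101916474, plus strand) encodes the type I receptor ALK5, which carries the signal to SMAD2 and SMAD3. It was at 84.5 and 102 CPM in Huh7 parental, 64.6 and 54.1 CPM in IR and 73.9 and 73.4 CPM in CR libraries. It fell in IR cells (-0.64 ± 0.13, limma adjusted p = 0.0014), and the CR difference did not pass (-0.33 ± 0.13, limma adjusted p = 0.066). Huh7 DMSO cells were as low, at 69.4 and 59.1 CPM (-0.53 ± 0.13, limma adjusted p = 0.043), where 5.18% of all genes were called between DMSO and parental cells. That call was lost without either parental library (-0.66 and -0.40) or DMSO replicate 2 (-0.41). It was also lost with only the Huh7 libraries fitted, where 0.193% of all genes were called between DMSO and parental cells. Taken against DMSO cells, the IR difference was -0.11 (limma adjusted p = 0.49), so the fall of TGFBR1 depends on the reference. In Hep3B all 8 libraries lay between 59.3 and 68.9 CPM and no difference passed. The averaged change differed by -0.57 ± 0.16 for Huh7 minus Hep3B (limma adjusted p = 0.018). It was -0.44 without Huh7 parental replicate 2, -0.59 and -0.55 without Hep3B parental replicate 1 or 2, none of which passed, and 0.12 with the DMSO libraries as reference.

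SMAD3 (chr15:67356101-67487511, plus strand) encodes the transcription factor that carries TGF-β and activin signals. It was the only 1 of the 10 called in all 4 resistant comparisons, each time higher. Huh7 libraries held 147 and 148 CPM in parental, 193 and 278 CPM in IR and 199 and 239 CPM in CR cells, and DMSO libraries were lower than parental ones at 94.9 and 108 CPM. Hep3B libraries held 75.1 and 68.9 CPM in parental, 175 and 128 CPM in IR and 120 and 118 CPM in CR cells. No resistant library overlapped a parental or DMSO library of its line. The log2 fold changes were 0.65 ± 0.19 and 0.56 ± 0.19 in Huh7-IR and CR (limma adjusted p = 0.011 and 0.030) and 1.04 ± 0.19 and 0.72 ± 0.19 in Hep3B-IR and CR cells (limma adjusted p = 0.0012 and 0.0098). The Huh7 calls were the weaker ones: with TMM factors the values were 0.45 and 0.46, with edgeR 0.48 and 0.47, and neither passed. The Huh7-CR call passed in 8 of 16 alternatives and was also lost with no filter on low values, with only the Huh7 libraries and with the study's own rule. Without IR replicate 2 the Huh7-IR value was 0.38, and without CR replicate 2, parental replicate 1 or parental replicate 2 the Huh7-CR values of 0.43, 0.56 and 0.57 did not pass. The Hep3B-CR call was lost without parental replicate 2 (0.66) or CR replicate 1 (0.71).

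Of the other SMAD genes, SMAD2 and SMAD4, the partners of SMAD3, were not called in any resistant comparison, the first lying at -0.21 to 0.27 and the second at -0.43 to 0.30 on the log2 scale. SMAD1, which serves BMP receptors, rose in Huh7 from 0.480 and 0.402 CPM in parental to 15.3 and 19.4 CPM in IR and 18.8 and 16.6 CPM in CR libraries. In Hep3B it was at 20.9 and 20.2 CPM in parental libraries already and was not called in IR or CR cells. SMAD9 fell in Hep3B-IR (-1.96) and Hep3B-CR cells (-2.07), and SMAD5 fell in Huh7-IR (-1.14) and Huh7-CR cells (-0.88).

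SMAD7 (chr18:46446223-46477335, minus strand), whose product docks on the activated type I receptor and blocks it, was at 24.7 and 24.9 CPM in Hep3B parental, 55.3 and 42.5 CPM in IR and 48.6 and 27.6 CPM in CR libraries. All resistant Hep3B libraries were above the parental ones, and the IR group passed (0.94 ± 0.27, limma adjusted p = 0.018), the CR group not (0.54 ± 0.27, limma adjusted p = 0.13). Hep3B DMSO libraries held 25.9 and 28.1 CPM, with CR replicate 2 between them. Without CR replicate 2 the CR value was 0.94 and passed, and without IR replicate 1 (0.75) or either parental library (0.93 and 0.95) the IR value did not pass. In Huh7 the levels were 44.7 and 40.6 CPM in parental, 59.0 and 58.5 CPM in IR and 51.4 and 52.7 CPM in CR libraries, with neither difference passing.

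SMAD6 (chr15:66994574-67075187, plus strand), known above all as an inhibitor of BMP signals, was at 8.41 and 5.71 CPM in Huh7 parental, 11.95 and 16.1 CPM in IR and 13.8 and 18.4 CPM in CR libraries. Resistant libraries were above parental ones, and CR cells passed (1.09 ± 0.37, limma adjusted p = 0.033), IR cells not (0.90 ± 0.37, limma adjusted p = 0.054). The CR call was lost without parental replicate 2 (0.85), CR replicate 1 (1.29) or CR replicate 2 (0.89). The Huh7 DMSO mean was higher still through replicate 2 at 38.3 CPM, while replicate 1 at 13.2 CPM lay within the range of the resistant libraries. Against parental cells the DMSO difference was 1.57 ± 0.37 (limma adjusted p = 0.035). It was 0.83 without DMSO replicate 2 and 1.81 and 1.32 without parental replicate 1 or 2, none of which passed. The DMSO call was also lost with only the Huh7 libraries fitted or with no filter on low values. Against these DMSO libraries SMAD6 was at -0.48 in CR cells. In Hep3B it was at 7.63 and 6.57 CPM in parental, 13.4 and 12.02 CPM in IR and 9.53 and 7.56 CPM in CR libraries, and neither difference passed.

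Other BMP-responsive genes were also higher in that Huh7 DMSO library, which stood apart more widely: INHA, the inhibin α subunit, was at 0.359 and 15.8 CPM in DMSO replicates 1 and 2, INHBE at 40.1 and 144 CPM and GDF15 at 18.9 and 57.0 CPM. ID1, a helix-loop-helix inhibitor of differentiation factors, was at 255 and 498 CPM in DMSO replicates 1 and 2, ID2 at 172 and 387 CPM and ID3 at 96.7 and 184 CPM. HAMP, the iron hormone hepcidin, was at 3.93 and 89.2 CPM, against 0.0873 and 0.0268 CPM in parental cells. Replicate 2 was the higher of the pair for all of these, for SMAD7 (42.4 and 75.6 CPM), for SMAD9 (9.03 and 28.7 CPM) and for ATOH8 (3.52 and 12.6 CPM). Of the 7 BMP targets tested, ID4, HAMP and ATOH8 rose in Huh7 DMSO cells and none fell, beside 3.6% of genes higher and 1.58% lower. In Hep3B DMSO cells none was called by limma, and replicate 2 was not the higher one throughout: its ratio to replicate 1 was 0.77 to 0.94 for the 4 ID genes, 1.09 for SMAD7, 1.17 for SMAD6, 1.33 for SMAD9, 1.83 for ATOH8 and 5.35 for HAMP. In resistant cells 1 of the 7 rose in each Huh7 comparison, ATOH8 (4.59 in IR and 3.61 in CR cells), and none rose in Hep3B with limma. Those that fell were ID1 and ID2 in Huh7-IR cells (-1.38 and -1.36), MSX1 in Hep3B-IR cells (-0.80), and ID2, ID4, ATOH8 and MSX1 in Hep3B-CR cells (-1.55, -1.29, -1.68 and -0.60).

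**Figure D4:**
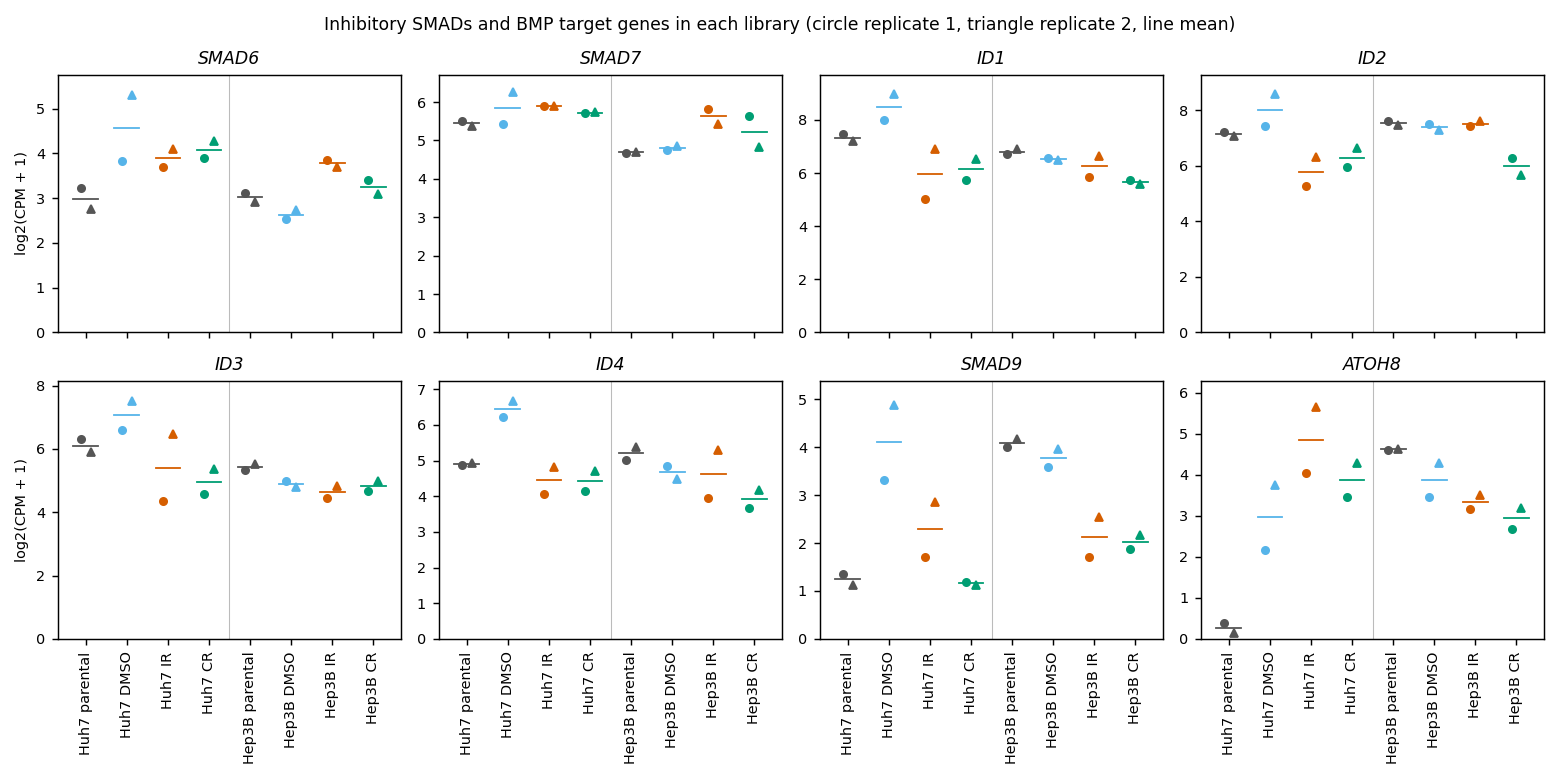
Log2(CPM + 1) (y axis, from 0) of the inhibitory SMAD genes, 4 ID genes, SMAD9 and ATOH8 in each library by group (x axis), with circles for replicate 1, triangles for replicate 2 and lines for the mean. In Huh7 DMSO cells replicate 2 is above replicate 1 in every panel, for SMAD6 at 38.3 against 13.2 CPM.

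SKIL (chr3:170075130-170114623, plus strand), the gene of the repressor SnoN, was the member that differed most between the parental lines. It was at 105 and 139 CPM in Huh7 and 336 and 321 CPM in Hep3B parental libraries (-1.44 ± 0.19 for Huh7 minus Hep3B, limma adjusted p = 5.5e-05). The 8 Huh7 libraries, at 88.8 to 139 CPM, all lay below the 8 Hep3B libraries, at 296 to 457 CPM. No resistant comparison passed, and edgeR, DESeq2 and TMM factors called SKIL lower in Huh7-IR cells (-0.54, -0.56 and -0.52), where limma gave -0.32 ± 0.19. The 26 genes within 5 Mb of SKIL had a median difference between the parental lines of -0.68, with 17 lower and 4 higher in Huh7 (65.4% lower), beside a median of -0.05 and 27.8% lower over all placed genes. Around INHBA, 30 of 49 genes were lower and 7 higher in Huh7 (61.2% lower), with INHBA itself at 0.54.

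TGFBI (chr5:135364677-135399507, plus strand), a secreted matrix protein named for its induction by TGF-β, was not called by limma in any comparison fitted on all 16 libraries against the parental cells or between the regimens. It was at 502 and 429 CPM in Huh7 parental, 380 and 659 CPM in IR and 383 and 296 CPM in CR libraries, and at 558 and 565 CPM in Hep3B parental, 774 and 673 CPM in IR and 574 and 441 CPM in CR libraries. The Huh7-IR libraries lay on both sides of the parental ones, both Hep3B-IR libraries lay above theirs, and the intervals of the differences were -0.42 to 0.64 and -0.99 to 0.07 in Huh7 and -0.17 to 0.89 and -0.69 to 0.37 in Hep3B. Without Huh7-IR replicate 1, TGFBI was higher in IR than in CR cells by 0.97 (limma adjusted p = 0.023), and against the DMSO libraries it was lower in Huh7-CR cells by -0.64 (limma adjusted p = 0.0499). With only the Hep3B libraries fitted it was higher in IR than in CR cells by 0.52 (limma adjusted p = 0.048).

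Between the parental lines 5 of 10 members differed, as did 50.3% of all genes. Beside SKIL, these were SMAD3 (1.02 ± 0.19 for Huh7 minus Hep3B, limma adjusted p = 0.00066), TGFBR2 (0.95 ± 0.13), TGFBR1 (0.62 ± 0.13) and SMAD7 (0.76 ± 0.27), all higher in Huh7. The SMAD7 call was lost without any 1 of the 4 parental libraries, at 0.69 to 0.83. TGFB1 was lower in Huh7 by -0.65 ± 0.26 (limma adjusted p = 0.054), and by -0.89 and passing without Huh7 parental replicate 1.

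The regimens were then compared within each line. In Hep3B, INHBA was lower in IR than in CR cells, at 0.0986 times the CR mean (-2.65 ± 0.29, limma adjusted p = 0.00014), the only 1 of 10 members called where 13.7% of genes were. In Huh7 none of the 10 was called by limma, with 3 at an unadjusted p under 0.05 (TGFB1 at 0.69, TGFBR1 at -0.31 and TGFBI at 0.57) and 1 called by DESeq2 (TGFBR1, -0.44), where 16% of genes were called. The IR minus CR difference was higher in Huh7 than in Hep3B by 1.38 ± 0.37 for TGFB1 (limma adjusted p = 0.017) and by 2.23 ± 0.40 for INHBA (limma adjusted p = 0.0030). This comparison was added after the values were seen, and 26% of genes were called in it. Regimen and the separate derivation of each resistant line cannot be told apart. TGFB1 was highest in IR cells of Huh7 and in CR cells of Hep3B. Its call was lost without Huh7-CR replicate 1 (1.27), Hep3B-IR replicate 2 (1.25) or Hep3B-CR replicate 2 (1.35).

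Some genes followed the ligands across the 16 libraries, by Pearson's r of log2(CPM + 1), in which libraries share their line and group. For TGFB1 these were PLEKHM1 (0.951), PIGT (0.947) and PACS2 (0.946), and for INHBA they were PARM1 (0.962), TLR3 (0.952) and P2RX1 (0.950). For TGFB2 they were TGFB2-OT1 (0.997), which lies inside the span of TGFB2 and may share its reads, GVINP1 (0.946) and DUBR (0.929). The genes nearest to TGFBI were less alike, MYO7A at 0.841, C11orf52 at 0.831 and its readthrough HSPB2-C11orf52 at 0.830, which overlap each other. Between members, the r farthest from 0 were those of TGFBR2 with SKIL (-0.87), SMAD6 with SMAD7 (0.84) and TGFB2 with SMAD3 (0.79), and the ligand genes TGFB1 and INHBA had an r of 0.60.

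The wider pathway was described by 108 other listed genes, of which 84 were tested. In Huh7-IR and CR cells 35 and 32 of them rose and 19 and 14 fell, and in Hep3B-IR and CR cells 28 and 26 rose and 8 and 15 fell. Their median log2 fold change was 0.54, 0.40, 0.27 and 0.24. Over all genes, 36%, 24.5%, 18.3% and 23.6% were higher in the 4 comparisons, and 3234, 2530, 2059 and 2278 of 15019 were lower, with medians of 0.19, 0.07, 0.06 and 0.11. The same shares are the background for each list that follows.

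**Figure D5:**
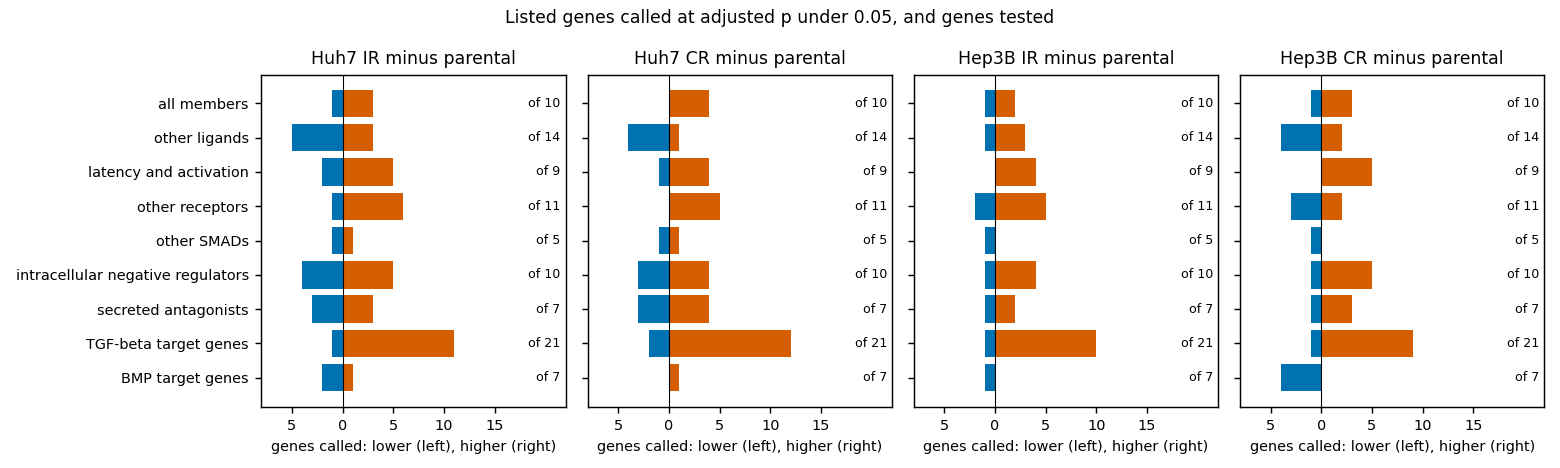
Number of listed genes called higher (right of 0) or lower (left of 0) at a limma adjusted p under 0.05 (x axis), by list (rows), in the 4 resistant comparisons (panels), with the number tested at the right. The TGF-β target list has the longest bars to the right, 9 to 12 of 21 tested genes.

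TGF-β target genes rose in part: 11 and 12 of 21 were higher and 1 and 2 lower in Huh7-IR and CR, and 10 and 9 were higher and 1 lower in Hep3B-IR and CR cells. Of all genes 36%, 24.5%, 18.3% and 23.6% were higher in these comparisons. The medians of the list were 1.20, 1.56, 0.65 and 1.00. CDKN1A and CDKN2B, inhibitors of cyclin-dependent kinases, CDH2 (N-cadherin), COL1A1 (a collagen I chain) and TIMP1, an inhibitor of matrix metalloproteinases, rose in all 4 comparisons. CDKN1A went from 0.848 and 1.36 CPM in Hep3B parental to 299 and 198 CPM in IR and 225 and 138 CPM in CR libraries (6.87 ± 0.68 and 6.41 ± 0.68), and also reached 27.1 CPM in Huh7 DMSO replicate 2 against 2.63 CPM in replicate 1. COL1A1, which is also a marker of fibroblasts, went from 1.02 and 0.563 CPM in Huh7 parental to 60.7 and 54.4 CPM in IR libraries (5.04 ± 0.55). The fibroblast marker COL3A1 rose beside it in Huh7, from 1.14 and 0.951 CPM in parental to 15.6 and 14.3 CPM in IR and 36.6 and 98.9 CPM in CR libraries, and was at most 0.0822 CPM in Hep3B, where COL1A1 rose too. DCN, another, was at most 2.50 CPM in any library.

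Another target separated the lines. CCN2, a matricellular growth factor, fell in Huh7 from 340 and 363 CPM to 239 and 158 CPM in IR and 224 and 154 CPM in CR libraries and rose in Hep3B from 118 and 148 CPM to 872 and 500 CPM in IR and 296 and 195 CPM in CR libraries. The difference of the mean changes was -2.46 ± 0.35 (limma adjusted p = 0.00028). CCN2, INHA, INHBE, GDF15, COL3A1, DCN, the BMP targets beside ATOH8 and the other SMAD genes beside SMAD9 were named after their values were seen. PMEPA1, a feedback target of TGF-β, was at 0.552 CPM or less in every library and was not tested.

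COL4A1 and ADAM19 went further still in Huh7. COL4A1, a basement membrane collagen chain, went from 4.12 and 3.40 CPM in parental to 137 and 232 CPM in IR and 190 and 181 CPM in CR libraries, and was at most 2.95 CPM in any Hep3B library. ADAM19, a membrane metalloproteinase, went from 0.0873 and 0 CPM in Huh7 parental to 53.1 and 39.3 CPM in CR libraries, and fell in Hep3B-IR cells from 25.9 and 19.0 CPM to 1.18 and 0.355 CPM (-3.76 ± 0.31). With ATOH8 these were the 3 listed genes whose mean resistant change differed most between the lines.

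Latent TGF-β is stored and released by other proteins, and their genes were mostly higher or not called: 5 and 4 of 9 rose in Huh7-IR and CR and 4 and 5 in Hep3B-IR and CR cells, with 2 and 1 lower in Huh7 and 0 lower in Hep3B. LTBP1, which binds the latent complex to matrix, went from 31.1 and 17.5 CPM in Huh7 parental to 119 and 133 CPM in IR and 138 and 119 CPM in CR libraries, and from 211 and 112 CPM in Hep3B parental to 474 and 450 CPM in IR and 487 and 440 CPM in CR libraries. LTBP2 rose in all 4 as well, by 2.36 to 3.41. FURIN, the protease that cleaves the TGF-β precursor, fell in Huh7-IR (-1.90) and CR cells (-1.47), with -0.09 and -0.10 in Hep3B.

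Of 14 other ligand genes tested, 3 and 1 rose and 5 and 4 fell in Huh7-IR and CR, and 3 and 2 rose and 1 and 4 fell in Hep3B-IR and CR cells. BMP6, a BMP ligand that induces hepcidin in liver, rose in all 4, from 0.296 and 0.338 CPM in Hep3B parental to 22.2 and 18.7 CPM in IR and 58.9 and 59.6 CPM in CR libraries (4.02 ± 0.28 and 5.52 ± 0.28). In Huh7 it went from 1.57 and 1.29 CPM to 6.15 and 7.21 CPM in IR and 13.6 and 8.74 CPM in CR libraries. BMP8A had the largest falls in Huh7 (-2.69 and -2.54).

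Receptor genes beside the members rose for 6 and 5 and fell for 1 and 0 of 11 in Huh7-IR and CR, and rose for 5 and 2 and fell for 2 and 3 in Hep3B-IR and CR cells. BMPR2, the type II BMP receptor, rose in all 4 comparisons (1.14, 1.30, 1.04 and 0.93). The 5 other SMAD genes gave 1 higher and 1 lower in each Huh7 comparison and 0 higher and 1 lower in each Hep3B comparison.

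Of 10 intracellular negative regulators, 5 and 4 rose and 4 and 3 fell in Huh7-IR and CR, and 4 and 5 rose and 1 fell in Hep3B-IR and CR cells. SMURF1, a ubiquitin ligase for SMADs and receptors (0.82, 0.88, 0.81 and 1.37), the SMAD corepressor TGIF1 (0.90, 0.55, 0.94 and 1.38) and FKBP1A, which holds the type I receptor inactive (0.56, 0.56, 0.36 and 0.58), rose in all 4. TGIF2, a paralog of TGIF1, fell in all 4 (-0.74, -0.62, -0.61 and -0.84).

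Among secreted antagonists, 3 and 4 of 7 rose and 3 fell in Huh7-IR and CR, and 2 and 3 rose and 1 fell in Hep3B-IR and CR cells. FSTL3, which binds activin, rose in all 4 (1.57, 1.68, 1.14 and 1.33), as did TWSG1, a BMP modulator (2.31, 2.69, 0.61 and 0.75). FST (follistatin), the other activin binder, fell in Huh7-IR (-1.63) and CR cells (-1.94), with 0.79 and 0.83 in Hep3B. GREM1, a BMP antagonist, had 0 reads in both Huh7 parental libraries and was at 39.7 and 21.3 CPM in IR and 13.1 and 7.03 CPM in CR libraries, at least 728-fold and 240-fold higher when 3 reads in each parental library are taken as the limit. It also rose in Hep3B-CR cells, to 26.3 and 18.1 CPM. CER1, an antagonist of nodal and BMP, fell in all 4 comparisons, in Hep3B from 61.6 and 40.4 CPM to 1.91 and 0.967 CPM in IR and 4.28 and 1.77 CPM in CR libraries. It was at 0 reads in both Huh7-IR libraries, at least 81.5-fold lower than parental by the same limit.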

How the data were processed

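Poly(A) RNA of 16 libraries was sequenced. The paper's methods state triplicates and another kit and sequencer than the labels, which give 2 replicates. The authors mapped reads to hg19 with STAR, kept unique hits and counted them over RefSeq exons with QuasR. The deposited values are CPM for 26258 genes, of which 26111 were matched to a symbol. All values were whole multiples of 1 read within 0.05 reads (100%), so reads were recovered for edgeR 4.0.16 and DESeq2 1.42.0.

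Log2(CPM + 1) was fitted with limma 3.58.1 (mean-variance trend, R 4.3.3) in 1 model of all 8 groups, over 15019 genes with at least 1 CPM in 2 libraries. P-values were adjusted by Benjamini-Hochberg over these genes. The script was tested on simulated data. A fold change on this scale understates changes of low genes. A count of 0 allows 3 reads (counting error only). Coordinates are GENCODE lift to GRCh37.

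The members and lists were chosen with earlier results of these data known. Named were all 10 members, listed genes called the same way in all 4 resistant comparisons, the 3 most positive and 3 most negative called in each, the 3 largest line differences, and the 3 genes most like TGFB1, TGFB2, TGFBI and INHBA by Pearson's r. The same for TGFBR2 was added after its values were seen. Alternatives were other tools, scalings, pseudocounts (0.25 and 4 CPM), filters, samples, references and call rules, each library left out, and a replicate block. 1 listed gene is not reported here.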

Additional observations from a re-analysis of the deposited data

Results flagged for a closer look

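The change from parental cells, averaged over both regimens, differed between the lines for 2 of 10 members. This was a test of the difference itself with limma, in which 31.6% of all genes were called. The change was lower in Huh7 for TGFBR1 (-0.57 ± 0.16, limma adjusted p = 0.018) and higher in Huh7 for TGFBR2 (0.76 ± 0.16, limma adjusted p = 0.0032). TGFBR2 passed in all 23 alternatives run and TGFBR1 in 18 of 23.

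The IR minus CR difference was higher in Huh7 than in Hep3B for TGFB1 (1.38 ± 0.37, limma adjusted p = 0.017) and INHBA (2.23 ± 0.40, limma adjusted p = 0.0030). INHBA passed in all 18 alternatives run and TGFB1 in 15 of 18. This comparison, in which 26% of all genes were called, was added after the values were seen. Its alternatives refit the same libraries, so they are no independent test of it.

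Among the other listed genes, the mean resistant change was higher in Huh7 than in Hep3B by 6.75 ± 0.38 for ADAM19, 6.13 ± 0.44 for COL4A1 and 5.59 ± 0.67 for ATOH8 (limma adjusted p = 2.7e-07, 1.5e-06 and 8.6e-05). No group had enough libraries for a test of single outlying samples.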

How the results depend on the processing

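Of 1820 values of a member under an alternative, 1639 kept direction and side of the threshold, 56 lost and 46 gained the call, 4 turned direction with a call on either side and 75 changed sign without one. All 4 turns came with the DMSO libraries as reference: SMAD6 in Huh7-CR cells (-0.48), TGFB2 in Hep3B-IR cells (1.01), and the line differences of TGFBR1 (0.12) and SMAD6 (-1.45). That reference gave 5 members called in Hep3B-IR cells in place of 3. The number of members called changed by over 1.5 times in the following. In Huh7-CR cells (4) it was 2 with no filter or only the line's libraries, and 1 to 4 leaving out 1 library. In Huh7 DMSO cells (2) it was 1 with no filter, the study's rule (unadjusted p under 0.05 and a log2 change of 0.58) or a block for the replicate number, crossed or not, 0 with only the line's libraries, and 0 to 4 leaving out 1 library. In Hep3B DMSO cells (1) it was 0 with edgeR, no filter, only the line's libraries or any library left out. In Hep3B-IR cells (3) it was 5 with only the line's libraries. For Huh7 IR minus CR (0) it was 1 with DESeq2 or the study's rule, and 0 to 1 leaving out 1 library. For Hep3B IR minus CR (1) it was 3 with only the line's libraries and 2 with the study's rule. For the line difference of resistant changes (2) it was 1 with the study's rule and 1 to 2 leaving out 1 library, and for the regimen difference (2) 1 to 2. The share of all genes called moved as well. With only the line's libraries it went from 41.3% to 26.9% in Huh7-CR and from 5.18% to 0.193% in Huh7 DMSO cells. It went from 32% to 44.1% in Hep3B-IR cells and from 13.7% to 26.2% for Hep3B IR minus CR. It rose from 1.64% to 4.47% in Hep3B DMSO cells, and to 14.5% with the study's rule in Huh7 DMSO cells, where member counts fell. With no filter it was 26.9% in Huh7-CR and 2.42% in Huh7 DMSO cells. The cause was not tested. Correlations of same-numbered deviations were -0.22 to 0.44 and above 0.1 in 6 of 12 pairs of groups, among them all 3 of Hep3B parental, IR and CR (0.21 to 0.26) and Huh7-IR with CR (0.44). Since the others were not, replicate numbers were not taken as pairing. With 2 libraries a group, each gene's own spread has at most 8 residual degrees of freedom. In limma that spread is then drawn toward a trend fitted over all genes, which also enters the SE and p-values.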
